A study of Mus musculus with 4 samples.

Results

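The 8 genes described here are Krt8, Krt18, Krt20, Piezo2, Isl1, Chga, Rab3c and Hepacam2, known from Merkel cells of the skin and taken by symbol from the 32289 genes of each count table. The genes were chosen with earlier results of these data known. They were followed in inner ear organoids grown from a mouse embryonic stem cell line, Atoh1-nGFP, in which nuclear green fluorescent protein (GFP) reports Atoh1. Organoids were taken apart, sorted on GFP and profiled by single-cell RNA-seq on a 10x Genomics chip, with 1 library from day 16, 1 from day 20 and, at day 21, a GFP high and a GFP low library. All 4 libraries come from the same line and are labelled as otic lineage, the labels give no treatment, and they name a GFP gate for day 21 alone. The labels speak of single nuclei in one place and of cells in another, and do not say how many organoids were pooled. With 1 library per group there is no replicate error, so no p-values were computed and intervals cover counting error only.

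Merkel cells are touch receptors of the epidermis that arise from keratinocytes under the transcription factor Atoh1, which hair cells of the inner ear also need. They make simple-type keratins in place of the basal keratins of the surrounding epidermis, sense indentation through the channel Piezo2, and carry dense-core granules and synaptic vesicle proteins at their contacts with sensory nerve endings. The 8 genes stand for these features: 3 keratins, 1 mechanically gated channel, 1 transcription factor, and 3 genes of granules, vesicles or the cell surface.

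Cells were sorted into classes by genes other than the 8. Ccer2, a gene for a coiled-coil protein, gave the first gate at 223 of every 10000 unique molecular identifiers (UMIs) of a cell. Otof, the synaptic calcium sensor of hair cells, gave the second, the basal keratins Krt5, Krt14 and Krt15 the third, and 6 neuron genes the fourth. The Ccer2 gate took 380, 821, 68 and 129 cells at day 16, day 20, GFP high and GFP low, which was 11.3%, 18.9%, 1.98% and 3.50% of the kept cells. Of these, 117, 116, 61 and 56 also passed the neuron gate, a share of 30.8%, 14.1%, 89.7% and 43.4%. Cells that passed the Ccer2 gate and no other are called Ccer2-rich and numbered 261, 687, 3 and 72, so that the GFP high library has almost none. For that reason values are given for all cells past the Ccer2 gate as well, and any value for GFP high Ccer2-rich cells rests on 3 cells. The other exclusive classes held 97, 102, 2069 and 514 Otof-positive cells, 190, 135, 53 and 88 basal keratin-positive cells, and 1245, 662, 242 and 1111 neuron-marker cells. Cells past no gate numbered 1411, 2624, 984 and 1828.

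The libraries kept 3376, 4348, 3435 and 3686 cells with median depths of 15256.5, 8836.5, 28877 and 22174.5 UMIs. Barcodes found in more than 1 library numbered 28 before filtering and 20 after it. Cells past the Ccer2 gate had median depths of 16697.5, 8723, 18737.5 and 15433 UMIs, lower than those of Otof-positive cells at 33870, 17290, 30659 and 25278. Levels are given as CPM, the UMIs of a gene summed over cells, divided by all UMIs of those cells and scaled to the same total throughout. Ccer2 itself made up 77140, 95344, 69123 and 75021 CPM in cells past its gate, and it was also read at 5.81%, 2.50%, 4.67% and 1.21% of that level in Otof-positive cells and at 0.638%, 0.125%, 0.806% and 0.144% in neuron-marker cells. These percentages were higher in Otof-positive than in neuron-marker cells of every library. How much of this Ccer2, or of the values below, came from RNA outside the cell was not tested.

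The Ccer2-rich cells held transcription factors that Merkel cells share with hair cells. Of 14 hair cell markers, 8 were at 10 CPM or more in Ccer2-rich cells of each library, and the list summed to 1957, 2016, 1282 and 2339 CPM, against 6242 to 7076 CPM in Otof-positive cells. In Ccer2-rich cells Atoh1 stood at 679, 777, 699 and 819 CPM at day 16, day 20, GFP high and GFP low, and Sox2 at 590, 458, 796 and 679 CPM. Pou4f3, a transcription factor of hair cells and Merkel cells, stood at 670, 548, 175 and 585 CPM there. The hair bundle motor Myo7a was at 0, 0.338, 0 and 1.82 CPM in the same cells, against 106 to 206 CPM in Otof-positive cells. Otof itself is kept low in them by the gates. Trp63, the regulator of basal keratinocytes, was at 6.36, 0.507, 0 and 4.54 CPM in Ccer2-rich cells, against 129 to 308 CPM in basal keratin-positive cells. The name Merkel cell is not used for them below, since the class rests on the Ccer2 gate. In GFP high, the cells past the Ccer2 gate included 5 that also passed the Otof gate, and Otof stood at 143 CPM over all 68.

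On the mouse assembly GRCm38 with GENCODE annotation, Krt8 (ENSMUSG00000049382) lies at chr15:101996698-102004482 on the minus strand and Krt18 (ENSMUSG00000023043) beside it at chr15:102028180-102032027 on the plus strand. Krt20 (ENSMUSG00000035775) lies with other keratins at chr11:99428403-99438150 on the minus strand. Isl1 (ENSMUSG00000042258) is at chr13:116298281-116309689 and Rab3c (ENSMUSG00000021700) at chr13:110054187-110280996, both on the minus strand. Chga (ENSMUSG00000021194) is at chr12:102554969-102565028 on the plus strand and Hepacam2 (ENSMUSG00000044156) at chr6:3457096-3498298 on the minus strand. Piezo2 carries the identifier ENSMUSG00000041482. All 8 are protein-coding genes, and a UMI count does not say which exon was read.

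Promoters of 4 genes are printed, those of the 3 keratins, which share a protein family, and that of the granule gene Chga. Each run is from RefSeq on GRCm38.p6, from 250 bases before to 50 after the annotated start, on the strand of the gene. Capitals mark E-box motifs, CANNTG, which basic helix-loop-helix factors such as Atoh1 can bind. The windows are chr15:102004293-102004592 on the minus strand, chr15:102027966-102028265 on the plus strand, chr11:99438104-99438403 on the minus strand and chr12:102554691-102554990 on the plus strand.
Krt8: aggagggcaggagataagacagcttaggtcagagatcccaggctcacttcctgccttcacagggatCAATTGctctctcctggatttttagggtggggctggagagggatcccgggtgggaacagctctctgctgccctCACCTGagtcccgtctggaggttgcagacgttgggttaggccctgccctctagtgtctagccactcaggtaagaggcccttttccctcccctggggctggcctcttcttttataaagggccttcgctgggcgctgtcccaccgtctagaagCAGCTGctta
Krt18: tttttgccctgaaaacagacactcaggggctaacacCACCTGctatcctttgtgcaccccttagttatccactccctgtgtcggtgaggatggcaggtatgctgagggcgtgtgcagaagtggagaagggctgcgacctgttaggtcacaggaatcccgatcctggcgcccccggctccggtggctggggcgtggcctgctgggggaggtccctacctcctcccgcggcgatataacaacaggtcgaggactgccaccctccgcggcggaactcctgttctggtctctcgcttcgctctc
Krt20: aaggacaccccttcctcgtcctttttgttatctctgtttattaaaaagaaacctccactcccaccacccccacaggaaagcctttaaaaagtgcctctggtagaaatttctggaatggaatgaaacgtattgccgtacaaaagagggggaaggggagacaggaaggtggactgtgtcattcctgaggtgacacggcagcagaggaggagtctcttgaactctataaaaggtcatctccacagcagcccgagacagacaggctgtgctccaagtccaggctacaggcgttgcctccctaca
Chga: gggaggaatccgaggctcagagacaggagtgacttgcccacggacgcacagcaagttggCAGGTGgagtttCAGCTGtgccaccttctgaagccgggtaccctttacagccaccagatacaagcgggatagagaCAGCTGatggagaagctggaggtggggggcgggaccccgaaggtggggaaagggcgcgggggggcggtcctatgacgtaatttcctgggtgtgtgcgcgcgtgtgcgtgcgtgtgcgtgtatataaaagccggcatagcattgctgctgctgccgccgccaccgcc
Promoters of 7 of the 8 genes were searched for 12 motifs on both strands, and Piezo2 was left out of the search. The windows follow RefSeq starts. Those of Rab3c (chr13:110280157-110280456) and Hepacam2 (chr6:3494449-3494748) lie inside the gene bounds given above and not at their outer end. CANNTG occurred in 6 of 7, all but Krt20, and in 72.3% of 32851 mouse promoters of the same length. The E-box CAGCTG, which is contained in CANNTG, occurred in 5 of 7 (Krt8, Isl1, Chga, Rab3c and Hepacam2) and in 16.3% of all promoters. CAGNTG, which read on the other strand is CANCTG, occurred in 6 of 7 and in 51.4% of all, and CATNTG in 1 of 7 and 39.4%. The TATA motif TATAAA occurred in 4 of 7 (Krt8, Krt20, Chga and Hepacam2) and in 13.6% of all. The homeobox-type motifs TAATTA and CTAATG occurred in 0 of 7, against 5.29% and 7.36% of all, and TAATNA, which contains TAATTA, in 2 of 7 and 26.5%. GGGCGG occurred in 2 of 7 and 35.7% of all, ATTCAT in 2 of 7 and 11.1%, and TTCCAG in 2 of 7 and 25.3%. A match describes letters in a window and says nothing of a factor at work there.

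All 8 genes were higher by size in Ccer2-rich cells than in Otof-positive cells, and 7 of the 8 than in neuron-marker cells, in each of the 3 libraries with enough cells. Calls go by size: the ratio of CPM had to reach 2 in either direction with a 95% interval that left out 1, among genes at 10 CPM or more on either side. Because the 8 were chosen with earlier results of these data known, their counts here are descriptions and no test. In the 3 libraries with 20 or more cells of both classes, 8 of 8 genes were called higher in Ccer2-rich than in Otof-positive cells, against 10.9% of all genes at day 16, 14.1% at day 20 and 14.4% in GFP low. Over basal keratin-positive cells the count was also 8 of 8, against 15% of all genes at day 16, 23.7% at day 20 and 19.8% in GFP low. Over neuron-marker cells it was 7 of 8 at day 16 and day 20 and 8 of 8 in GFP low, against 11.1%, 13.4% and 12.7% of all genes. In GFP high, where all 68 cells past the Ccer2 gate were used, 8, 8 and 7 genes were called higher than in Otof-positive, basal keratin-positive and neuron-marker cells, against 13.9%, 29.2% and 12.4% of all genes. Rab3c was the gene that missed the call against neuron-marker cells at day 16, at day 20 and in GFP high.

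**Figure D1:**
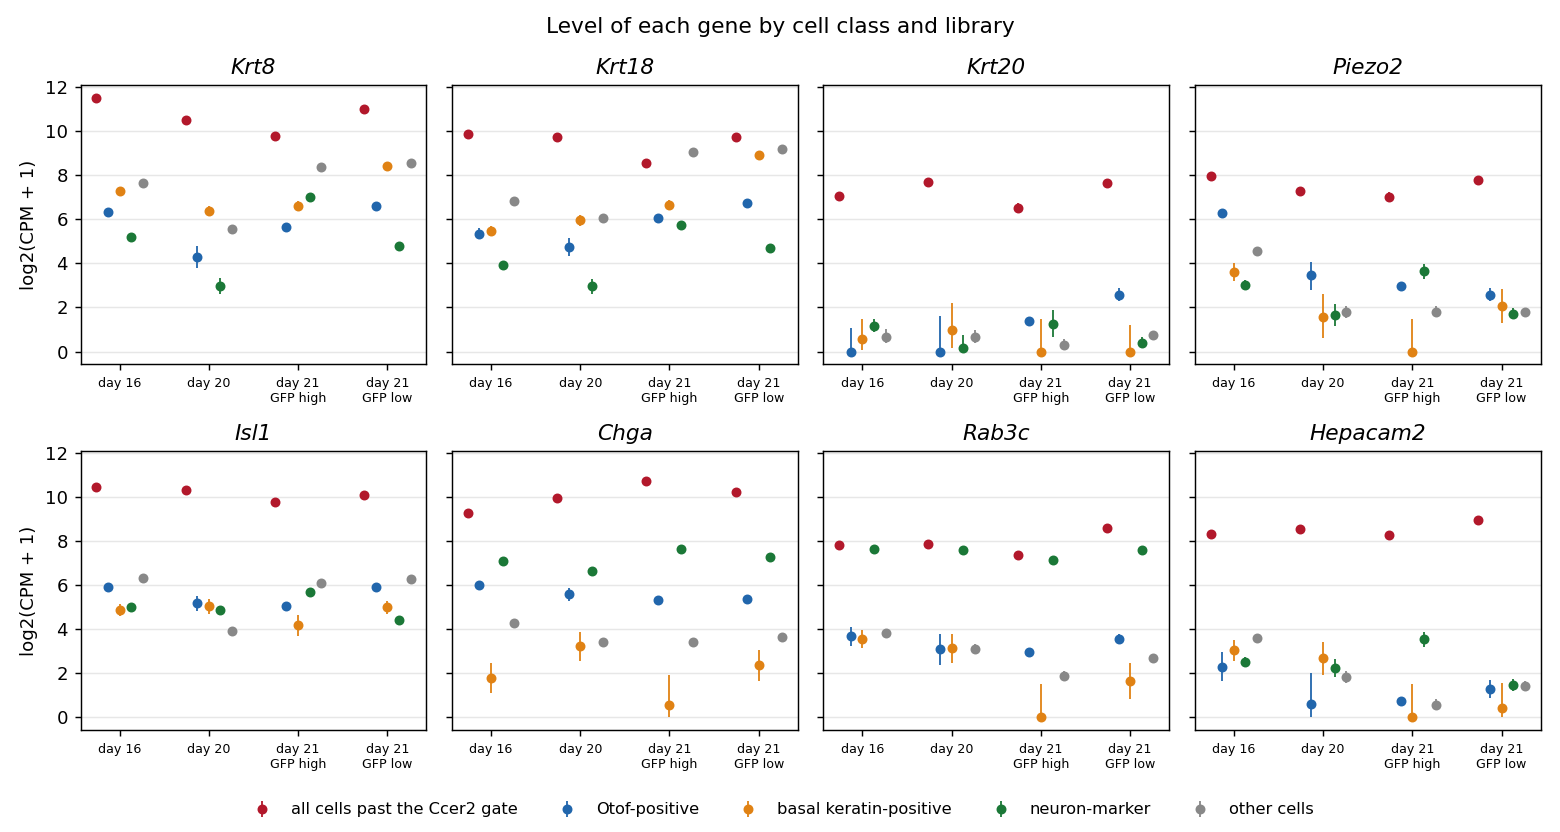
Levels of the 8 genes, as log2(CPM + 1) on the y axis, in each library on the x axis; points are sums over the cells of a class, bars are exact 95% Poisson intervals, and colours are classes. The red points for cells past the Ccer2 gate stand above the Otof-positive, basal keratin-positive and neuron-marker points in every panel and library, by least for Rab3c over neuron-marker cells, while other cells (grey) stand above them for Krt18 in GFP high.

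The genes also occurred together in single cells. Each cell was thinned to 3000 UMIs and cells below that depth were left out, which removed 8, 52, 0 and 1 of the Ccer2-rich cells of the 4 libraries. Ccer2-rich cells then held a median of 6, 5, 6 and 6 of the 8 genes at day 16, day 20, GFP high and GFP low. Cells with 5 or more of the 8 made up 77.5%, 78.4%, 100% (3 of 3) and 88.7% of them. Over all cells past the Ccer2 gate the shares were 76.5%, 75.3%, 58.8% and 83.5%. No Otof-positive cell of the 97, 102, 2064 and 512 that were deep enough held 5 of the genes, and neuron-marker cells did so in 0.259%, 0.175%, 2.07% and 0.277%. Holding 5 or more of these genes in one cell was thus seen mainly past the Ccer2 gate, in each library. Cells past no gate held 3 or more in 4.98%, 0.856%, 4.38% and 7.01%, against 98.9%, 97.3%, 89.7% and 99.2% past the Ccer2 gate. Since cells past no gate outnumbered the gated cells in every library, no such statement is made for 3 or more.

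**Figure D2:**
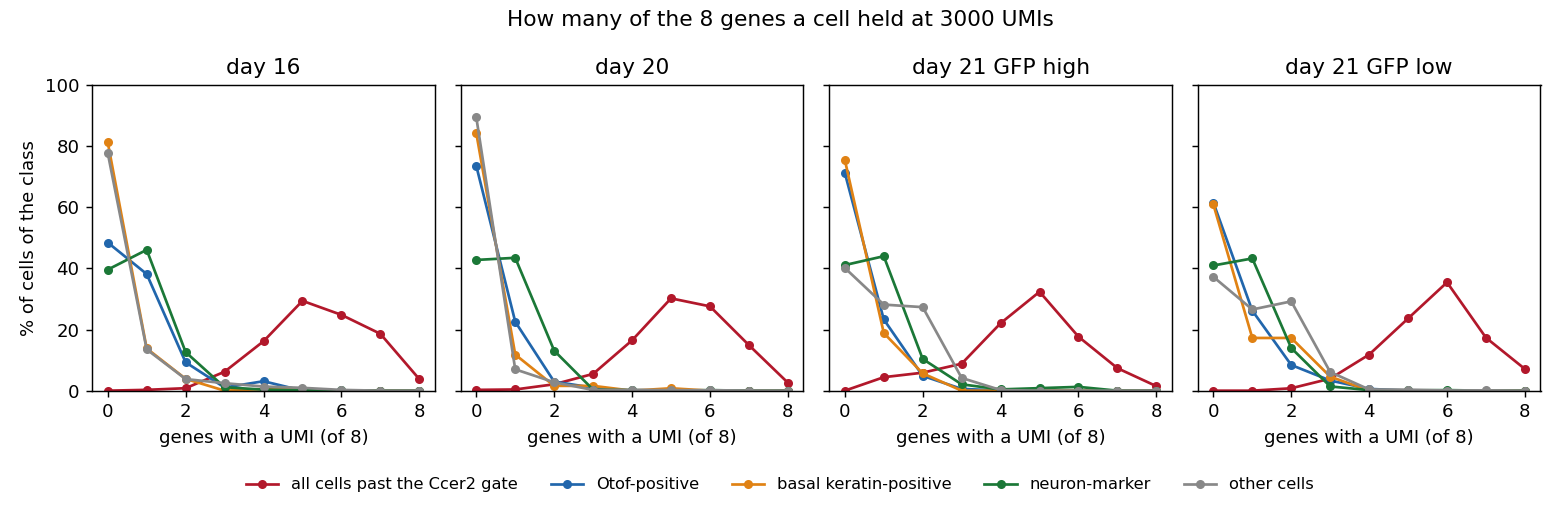
Share of cells of each class (y axis, %) that held a given number of the 8 genes (x axis) after thinning to 3000 UMIs, 1 panel per library. Cells past the Ccer2 gate peaked at 5 or 6 genes in all 4 libraries, while Otof-positive, basal keratin-positive, neuron-marker and other cells peaked at 0 or 1.

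Krt8 and Krt18 form the paired type II and type I keratin filament of simple epithelia. Krt8 stood at 2861, 1416, 878 and 2042 CPM in cells past the Ccer2 gate at day 16, day 20, GFP high and GFP low. In Otof-positive cells it stood at 79.0, 18.7, 49.0 and 96.1 CPM, in basal keratin-positive cells at 153, 82.8, 96.2 and 343 CPM, and in neuron-marker cells at 35.9, 6.87, 128 and 26.7 CPM. The gated cells were above each of these classes in every library. Krt18 stood at 931, 841, 376 and 845 CPM past the Ccer2 gate. It stood at 39.5, 25.9, 65.2 and 106 CPM in Otof-positive cells, 43.5, 60.3, 99.2 and 472 CPM in basal keratin-positive cells, and 14.3, 6.75, 51.6 and 25 CPM in neuron-marker cells. Its margin was smallest in GFP low, where the gated cells stood at 1.79 times the basal keratin-positive level. A few cells carried much of the signal outside the gate: the 10 highest cells held 91.2% of the Krt8 UMIs of day 16 Otof-positive cells, 75.6% of those of GFP high neuron-marker cells, and 83.7% of the Krt18 UMIs of GFP low basal keratin-positive cells. At 3000 UMIs, Krt8 had a UMI in 98.1%, 90.1%, 79.4% and 89.8% of cells past the Ccer2 gate (99.5%, 94.5%, 98.5% and 98.4% at full depth), against 13.4%, 5.88%, 6.88% and 14.8% of Otof-positive cells (28.9%, 17.6%, 27.6% and 35.2%).

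The same keratin pair was read in cells past no gate. Krt8 stood at 199, 45.6, 323 and 366 CPM in these other cells and Krt18 at 113, 64.7, 531 and 571 CPM, so that Krt18 in GFP high was lower past the Ccer2 gate than in other cells, at 0.709 times their level. Other cells held 16.0% and 8.65% of all Krt8 UMIs at day 16 and day 20, and 62.4% and 71.2% of them in GFP high and GFP low. A split made after these values were seen took other cells with Agr3, a gene read in supporting cells of the inner ear, numbering 18, 13, 280 and 548. In them Krt8 stood at 334, 583, 553 and 635 CPM and Krt18 at 708, 1425, 855 and 1030 CPM. In other cells with collagen transcripts, 1002, 2162, 75 and 153 of them, Krt8 stood at 19.1, 5.34, 12.4 and 5.44 CPM. The remaining other cells, 391, 449, 629 and 1127 of them, had Krt8 at 489, 208, 242 and 289 CPM and Krt18 at 238, 283, 419 and 434 CPM, so the simple keratins of other cells were not limited to those with Agr3. At day 16 the remaining cells held 3548 of the 4003 Krt8 UMIs of other cells, and those with Agr3 held 221. Agr3-positive other cells had few or no UMIs of Krt20 (1.51, 0, 0 and 0.225 CPM) and Hepacam2 (0, 5.77, 0.672 and 0.225 CPM). The remaining other cells had Krt20 at 1.38, 1.23, 0.372 and 0.910 CPM and Hepacam2 at 26.4, 10.6, 0.426 and 2.48 CPM.

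The balance of the pair differed between cells past the Ccer2 gate and those with Agr3. Cells past the Ccer2 gate held 3.07, 1.68, 2.33 and 2.42 Krt8 UMIs for each Krt18 UMI at day 16, day 20, GFP high and GFP low. Agr3-positive other cells held 0.471, 0.409, 0.647 and 0.617, with 95% intervals that reached no higher than 0.671. The intervals of the gated cells reached no lower than 1.63, so Krt8 exceeded Krt18 in one population and the reverse held in the other, in all 4 libraries. The remaining other cells, by the levels above, had more Krt8 than Krt18 at day 16 and less in the other libraries. Since UMIs are tied to the end of a transcript and not to its length, the ratio compares UMIs and not protein. Otof-positive cells stood between them at 2.0, 0.723, 0.751 and 0.906. Basal keratin-positive cells were at 3.53, 1.37, 0.970 and 0.727. Neuron-marker cells were at 2.50, 1.02, 2.49 and 1.07, so more Krt8 than Krt18 was not particular to the gated cells.

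**Figure D3:**
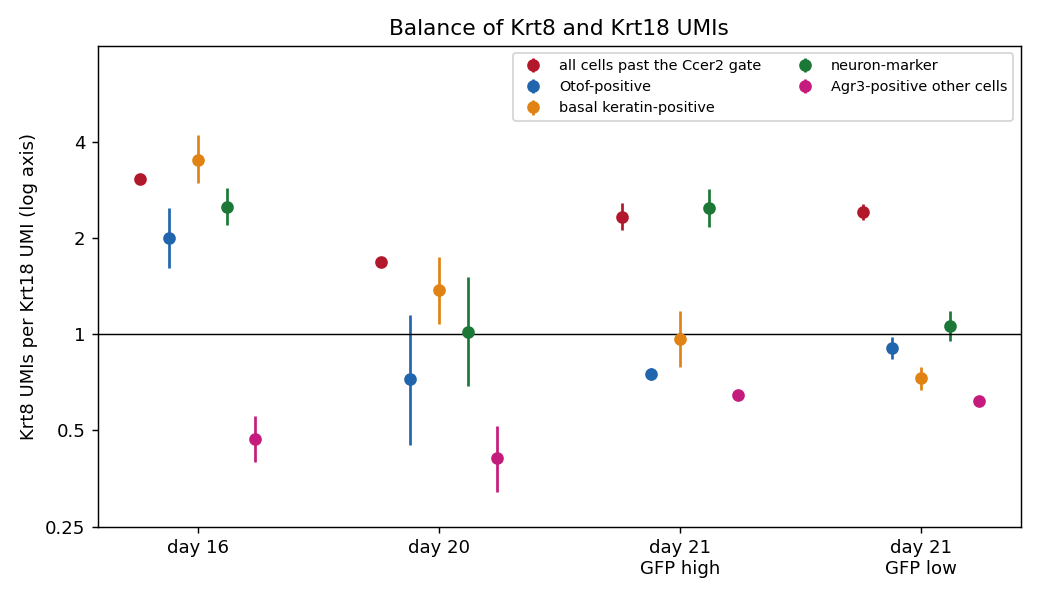
Krt8 UMIs for each Krt18 UMI (y axis, log scale) by library (x axis), summed over the cells of a class, with exact 95% intervals. Cells past the Ccer2 gate lie between 1.68 and 3.07 and Agr3-positive other cells between 0.409 and 0.647, on opposite sides of the line at 1.

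Krt20, a type I keratin of Merkel cells and of gut epithelium, was together with Hepacam2 the most restricted of the 8. It stood at 130, 204, 90.5 and 201 CPM past the Ccer2 gate. It had 0 UMIs in Otof-positive cells of day 16 and day 20, which allows up to 0.911 and 1.65 CPM, and stood at 1.59 and 4.95 CPM in those of GFP high and GFP low. In basal keratin-positive cells, which make other keratins at high level, it stood at 0.497, 0.998, 0 and 0 CPM, and in neuron-marker cells at 1.24, 0.125, 1.37 and 0.305 CPM. Outside the gate its level was thus at most 2.46% of that inside it, seen in GFP low Otof-positive cells, where Ccer2 itself was read at 1.21% of its gated level. Within the gate not every cell showed it: 56.8%, 62.0%, 69.1% and 70.5% of cells had a UMI at full depth, and 30.2%, 38.9%, 20.6% and 42.5% at 3000 UMIs, against 0%, 0%, 0.678% and 0.977% of Otof-positive cells. Because Otof-positive cells were so many in GFP high, they held 40.1% of all Krt20 UMIs of that library, although 3.53% of them had a UMI.

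Piezo2, the mechanically gated cation channel of touch, stood at 246, 153, 129 and 219 CPM past the Ccer2 gate. In basal keratin-positive cells it stood at 11.2, 2.0, 0 and 3.17 CPM and in neuron-marker cells at 7.14, 2.12, 11.5 and 2.29 CPM. Otof-positive cells were the exception to this contrast, at day 16 alone. They stood at 76.2 CPM at day 16 (95% interval 67.1 to 86.3), and at 9.92 CPM at day 20, with 6.84 CPM (GFP high) and 4.95 CPM (GFP low) at day 21. The day 16 level was 31.0% of that past the Ccer2 gate, while Ccer2 was read in the same Otof-positive cells at 5.81% of its gated level. A Piezo2 UMI was found in 74.2% of the 97 Otof-positive cells of day 16, against 10.8% of those of day 20, 12.9% of those of GFP high and 8.56% of those of GFP low. At 3000 UMIs the shares were 21.6% (95% exact interval 13.9 to 31.2), 0.980%, 1.55% and 0.586%. The 10 highest cells held 37.5% of the 251 Piezo2 UMIs of the day 16 cells, fewer than the 91.2% seen for Krt8. Transduction channels of hair cells are encoded by other genes, such as Tmc1, and Piezo2 is known to act at the apical surface of immature hair cells.

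Isl1, a LIM homeodomain transcription factor of sensory neurons, hair cell precursors and Merkel cells, had the smallest span between libraries past the Ccer2 gate, by the ratio of its highest to its lowest level. It stood at 1375, 1264, 879 and 1084 CPM there, with a UMI in 95.7%, 94.2%, 86.8% and 95.3% of cells at 3000 UMIs. Otof-positive cells stood at 59.2, 35.3, 32.6 and 58.5 CPM, basal keratin-positive cells at 28.6, 31.9, 17.3 and 30.7 CPM and neuron-marker cells at 31.2, 28.4, 50.05 and 20.1 CPM. Outside the gate it was thus read at 1.85% to 5.69% of the gated level in these classes. Agr3-positive other cells stood at 172, 11.5, 124 and 151 CPM, and a UMI was found in 62.1% (GFP high) and 63.5% (GFP low) of them.

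Chga encodes chromogranin A, a core protein of dense-core granules. It stood at 609, 991, 1705 and 1182 CPM past the Ccer2 gate at day 16, day 20, GFP high and GFP low. The 95% intervals of these levels did not touch, so the order, by counting error alone, was day 16 lowest, then day 20, GFP low and GFP high. Neuron-marker cells stood at 134, 98.5, 195 and 152 CPM, or 22%, 9.93%, 11.5% and 12.9% of the gated level. Otof-positive cells stood at 62.3, 46.8, 39.1 and 39.9 CPM, with a Chga UMI in 76.3%, 52.0%, 59.3% and 58.0% of them at full depth and in 14.4%, 15.7%, 9.59% and 10.5% at 3000 UMIs. Basal keratin-positive cells had almost none, at 2.48, 8.48, 0.494 and 4.23 CPM.

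Rab3c, a small GTPase of the Rab3 family on synaptic and secretory vesicles, was the gene of the 8 with the smallest distance from neuron-marker cells. It stood at 227, 231, 162 and 385 CPM past the Ccer2 gate and at 196, 193, 138 and 190 CPM in neuron-marker cells. The neuron-marker level was thus 86.3%, 83.3%, 85.2% and 49.3% of the gated one. Against Ccer2-rich cells the ratio ran from 1.27 to 2.25 and passed the call in GFP low alone. Otof-positive cells stood at 11.8, 7.71, 6.71 and 10.9 CPM. At 3000 UMIs a UMI was found in 48.2%, 48.2%, 35.3% and 63.8% of the gated cells, 40.8%, 40.0%, 30.7% and 40.0% of neuron-marker cells and 2.06%, 1.96%, 1.99% and 3.12% of Otof-positive cells. By share of UMIs, neuron-marker cells held most Rab3c in the day 16 (67.6%), GFP high (50.1%) and GFP low (80.2%) libraries, and the gated cells held 24.2%, 16.3% and 12.8% there. At day 20 the neuron-marker cells held 43.9% and the gated cells 50.2%.

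Hepacam2, a membrane protein of the immunoglobulin superfamily, stood at 317, 374, 310 and 493 CPM past the Ccer2 gate. It stood at 3.95, 0.551, 0.678 and 1.45 CPM in Otof-positive cells, 7.20, 5.49, 0 and 0.352 CPM in basal keratin-positive cells and 4.70, 3.75, 10.6 and 1.75 CPM in neuron-marker cells. The gated cells held 84.9%, 96.5%, 80.4% and 87.3% of all Hepacam2 UMIs of their library, although they made up at most 18.9% of its cells. No other gene of the 8 had that much of its UMIs inside the gate in every library.

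Between the GFP gates at day 21, Rab3c and Hepacam2 were called lower in GFP high over all cells. Among cells past the Ccer2 gate the 3 keratins and Rab3c were called lower in GFP high. Over all cells Rab3c stood at 14.9 CPM in GFP high and 66.7 CPM in GFP low (ratio 0.224, 95% interval 0.212 to 0.237) and Hepacam2 at 5.80 CPM and 12.5 CPM (0.463, 0.419 to 0.510). These were the 2 called genes among the 6 that reached 10 CPM, against 14.6% of all genes. The keratins were lower over all cells as well without a call, with ratios of 0.531 for Krt8 and 0.561 for Krt18. Krt20 had a ratio of 0.448 but lay under 10 CPM. Isl1 and Chga had ratios of 0.697 and 0.786, and Piezo2, also under 10 CPM, of 1.04. Cell makeup differed along with them, since GFP high held 1.98% cells past the Ccer2 gate and 7.05% neuron-marker cells, and GFP low held 3.50% and 30.1%. Levels over all cells cannot separate fewer cells of a class from less RNA per cell.

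Among cells past the Ccer2 gate, 68 in GFP high and 129 in GFP low, 4 of 8 genes were called lower in GFP high, against 10.6% of all genes called either way. Krt8 stood at 878 CPM in GFP high and 2042 CPM in GFP low (ratio 0.430, 0.405 to 0.457), and Krt18 at 376 CPM and 845 CPM (0.445, 0.405 to 0.488). Krt20 stood at 90.5 CPM in GFP high and 201 CPM in GFP low (0.450, 0.370 to 0.545), and Rab3c at 162 CPM and 385 CPM (0.420, 0.364 to 0.484). Chga went the other way, with 1705 CPM in GFP high and 1182 CPM in GFP low, a ratio of 1.44 (1.37 to 1.52) that did not reach the call. Piezo2, Isl1 and Hepacam2 had ratios of 0.588, 0.811 and 0.629 and were not called either.

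The neuron gate moved with this contrast, since 89.7% of the gated cells of GFP high passed it and 43.4% of those of GFP low. The 11 neuron markers summed to 4381 CPM in GFP high gated cells and 2162 CPM in GFP low gated cells, and all 11 were at 10 CPM or more in both. Among cells that passed the Ccer2 and neuron gates alone, 58 in GFP high and 56 in GFP low, 0 of 8 genes were called, against 6.91% of all genes. The ratios there were 0.639 for Krt8, 0.692 for Krt18, 0.656 for Krt20, 0.522 for Rab3c and 1.47 for Chga. The directions were those of the wider contrast, with the ratios of Krt8, Krt18, Krt20 and Rab3c closer to 1 and that of Chga slightly farther from it. Among Ccer2-rich cells proper, 3 in GFP high and 72 in GFP low, Piezo2 was called lower with 3 UMIs against 268 (ratio 0.239, 0.0491 to 0.707) and Chga higher at 2234 CPM against 1104 CPM (2.02, 1.66 to 2.45), against 3.05% of all genes. The Krt8 ratio in these was 0.567 (0.444 to 0.713).

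**Figure D4:**
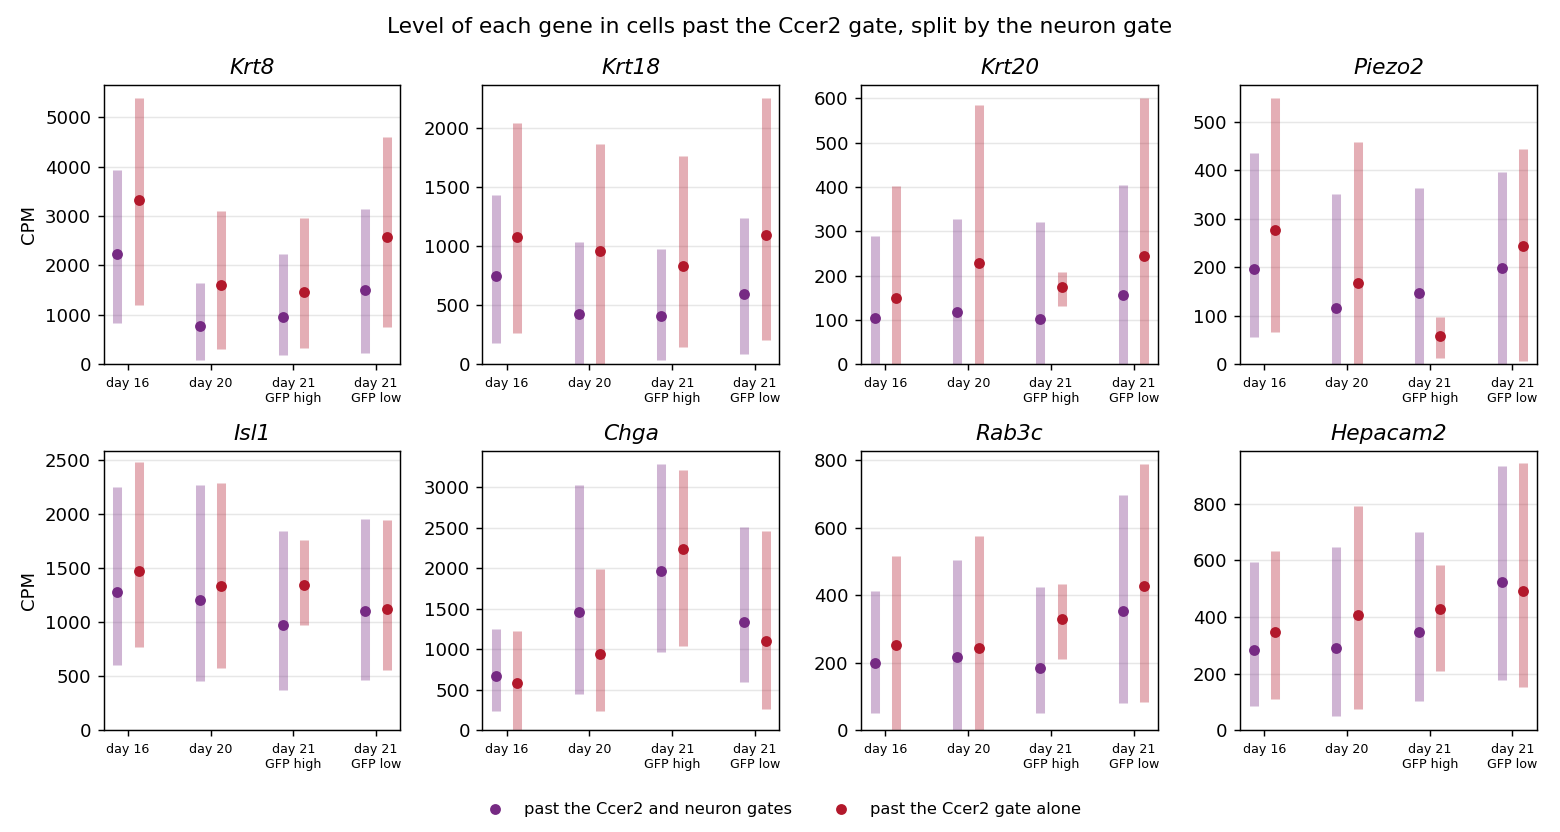
CPM (y axis, from 0) of the 8 genes in cells past both the Ccer2 and neuron gates (purple) and past the Ccer2 gate alone (red) by library (x axis); points are sums over cells and bars run from the 10th to the 90th percentile of single cells. Krt8, Krt18, Krt20, Isl1 and Rab3c stood lower in purple than in red in all 4 libraries. The red GFP high points rest on 3 cells, and the ranges of single cells overlapped throughout.

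Within a library, cells past both gates can be set against Ccer2-rich cells without the GFP sort. At day 20 Krt8 (783 CPM against 1612 CPM, ratio 0.486) and Krt18 (424 CPM against 958 CPM, ratio 0.443) were called lower in cells past both gates, against 7.89% of all genes. At day 16 and in GFP low 0 of 8 were called, against 3.73% and 5.36% of all genes, with Krt8 ratios of 0.672 and 0.585 and Krt18 ratios of 0.692 and 0.544. Chga had ratios of 1.16, 1.57 and 1.21 at day 16, day 20 and in GFP low, and Isl1 of 0.869, 0.904 and 0.987. Krt8 and Krt18 lower and Chga higher beside neuron genes was thus the direction in these 3 libraries, mostly short of the call. Krt20, Piezo2, Isl1 and Rab3c were also lower in each of them. Rab3c had ratios of 0.789 at day 16 and 0.880 at day 20, and stood at 353 CPM against 428 CPM in GFP low. Hepacam2 was lower at day 16 and day 20 and higher in GFP low. In GFP high, where 3 Ccer2-rich cells stand on the other side, Krt18 was called lower (ratio 0.492), against 2.73% of all genes, and Chga had a ratio of 0.878.

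In Otof-positive cells, 0 of the 5 genes that reached 10 CPM were called between GFP high and GFP low, against 4.76% of all genes. Krt8 came nearest, at 49.0 CPM in GFP high and 96.1 CPM in GFP low (ratio 0.509, 0.477 to 0.544). In neuron-marker cells 5 of the genes ran the opposite way to the Ccer2-gated cells. In them Krt8 stood at 128 CPM in GFP high and 26.7 CPM in GFP low (ratio 4.81), and Krt18, Piezo2, Isl1 and Hepacam2 had ratios of 2.06, 5.02, 2.49 and 6.06. These 5 of 7 were called higher, against 5.15% of all genes. Chga (1.28) and Rab3c (0.726) were not called and ran the same way as in the gated cells. Ccer2 moved with them, at 557 CPM in GFP high neuron-marker cells and 108 CPM in GFP low ones, and 10 cells held 75.6% of the Krt8 UMIs in GFP high. The part of such cells in the result was not tested. In basal keratin-positive cells Krt8 (96.2 CPM in GFP high, 343 CPM in GFP low, ratio 0.280) and Krt18 (99.2 CPM and 472 CPM, ratio 0.210) were called lower in GFP high, 2 of the 3 genes at 10 CPM, against 5.81% of all genes. The 10 highest cells held 83.7% of those Krt18 UMIs in GFP low and 93.0% in GFP high.

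**Figure D5:**
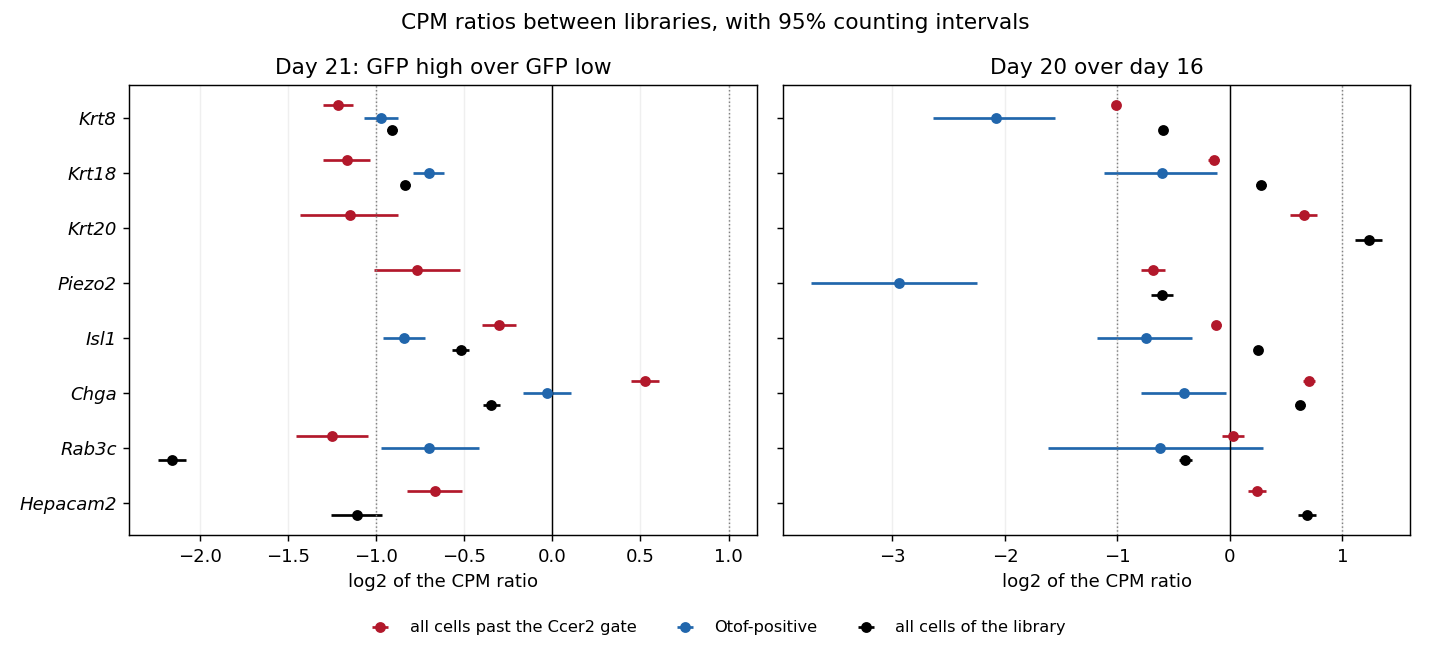
Log2 of the CPM ratio (x axis) of each gene (y axis) for GFP high over GFP low at day 21 (left) and day 20 over day 16 (right), among cells past the Ccer2 gate, Otof-positive cells and all cells, with exact 95% counting intervals; dotted lines mark ratios of 2 either way and genes below 10 CPM on both sides are not drawn. The red points for Krt8, Krt18, Krt20 and Rab3c lie left of the dotted line in the left panel, and Piezo2 in Otof-positive cells lies farthest left in the right panel.

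Between day 20 and day 16, Krt20 was higher over all cells, and Krt8 and Piezo2 were lower in several classes, Krt8 also inside the Ccer2 gate. Krt20 was the 1 gene of 8 called over all cells, with 37.0 CPM at day 20 and 15.8 CPM at day 16 (ratio 2.35, 2.16 to 2.55), against 11.7% of all genes. The share of cells past the Ccer2 gate was also higher, 18.9% at day 20 against 11.3% at day 16, and within the gate Krt20 had a ratio of 1.57 (1.45 to 1.71) that was not called. In Ccer2-rich cells Krt8 was the 1 gene called, with 1612 CPM at day 20 and 3327 CPM at day 16 (ratio 0.484, 0.472 to 0.497), against 9.5% of all genes. Over all cells past the gate its ratio was 0.495 (0.483 to 0.507), again the 1 call, against 8.56% of all genes. A count of 1 of 8 lies near the share of all genes in each of these comparisons, so the counts mark nothing particular to the 8. These Krt8 values lie close to the limit of 0.5, and 2 other ways of computing it ended the call, at ratios of 0.511 with a doubled Ccer2 gate and 0.527 with another scaling. Its partner Krt18 had a ratio of 0.891 in Ccer2-rich cells and Isl1, Rab3c and Hepacam2 of 0.908, 0.973 and 1.18. Among cells past the Ccer2 and neuron gates, 115 on each day, Krt8 was called lower (783 CPM at day 20, 2237 CPM at day 16, ratio 0.350) and Chga higher (1464 CPM and 675 CPM, ratio 2.17), against 12.9% of all genes.

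In Otof-positive cells, Piezo2 and Krt8 were called lower at day 20 than at day 16, 2 of the 6 genes at 10 CPM, against 15.4% of all genes. Piezo2 stood at 9.92 CPM at day 20 and 76.2 CPM at day 16 (ratio 0.130, 0.0759 to 0.210). Krt8 stood at 18.7 CPM and 79.0 CPM (ratio 0.237, 0.161 to 0.340), where the 10 highest cells held 91.2% of the day 16 UMIs. The Piezo2 difference was thus spread over most of the day 16 cells and that of Krt8 was not. Depth moved with the day, at median UMIs of 17290 for Otof-positive cells of day 20 and 33870 for those of day 16, and the thinned Piezo2 shares of 0.980% and 21.6% compare them at equal depth.

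Lower levels at day 20 were called in further classes. In other cells 4 of 7 genes were called lower, against 15.5% of all genes. Piezo2 stood there at 2.48 CPM at day 20 and 22.5 CPM at day 16 (ratio 0.110, 0.0823 to 0.146). Krt8 stood at 45.6 CPM and 199 CPM (ratio 0.229, 0.214 to 0.246). Both intervals overlap the ones given above for Otof-positive cells. Isl1 and Hepacam2 had ratios of 0.179 and 0.229 in other cells. In neuron-marker cells Krt8 (6.87 CPM at day 20, 35.9 CPM at day 16, ratio 0.191) and Krt18 (6.75 CPM and 14.3 CPM, ratio 0.471) were the 2 called lower of 5, against 6.29% of all genes. In basal keratin-positive cells Piezo2 was the 1 called lower of 5, against 17.1% of all genes, with 4 UMIs at day 20 and 45 at day 16 (ratio 0.178, 0.0466 to 0.490). That count is near the share of all genes.

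Across single cells past the Ccer2 gate, Krt8 and Krt18 went together in each library, with Pearson r of 0.647, 0.665, 0.756 and 0.622 over 380, 821, 68 and 129 cells. Krt8 and Chga had r of -0.140, -0.244, 0.231 and -0.110, and Krt18 and Chga of -0.126, -0.286, 0.106 and -0.106. Isl1 and Chga had r of 0.0888, 0.0962, 0.516 and 0.0489. These are descriptions, since the cells of a library share its preparation and per-cell values share their depth. Chga and Hepacam2 had r of 0.495 and Isl1 and Hepacam2 of 0.491 in GFP high, the library with the fewest such cells.

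Over 19 sums of a class in a library, the genes most like each of the 8 were ranked by Pearson r of log2(CPM + 1) among 10733 genes. The sums share libraries and the Ccer2 gate, and the r are given as a description. Krt8 was nearest to Krt18 (0.935), Plekha2 (0.916) and Tent5a (0.903), and Krt18 to Krt8, Rab17 (0.917) and Plekha2 (0.910). Krt20 was nearest to Kcnv1 (0.967), Defa24 (0.962) and Cytip (0.959). Piezo2 was nearest to Eml4 (0.947), Fam204a (0.939) and Hes6 (0.920), and Isl1 to Bik (0.942), Smim24 (0.939) and Atp4a (0.937). Chga was nearest to Rasl10b (0.967), Tmeff2 (0.954) and Ap4s1 (0.949). Rab3c was nearest to Stx1a (0.971), a vesicle fusion protein, Syn2 (0.966), a synaptic vesicle protein, and Prmt8 (0.958). Hepacam2 was nearest to Slc35d3 (0.974), Avil (0.968) and Prrxl1 (0.949). Among the 8 themselves, the lowest r was that of Krt18 with Rab3c (-0.00699) and the highest that of Krt8 with Krt18.

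Related genes were read in Ccer2-rich against Otof-positive cells with counts pooled over the libraries, so that day and gate differ between the 2 sides. The 8 genes and the lists were chosen with earlier results of these data known, so the counts are descriptions and no test. All 8 genes were called higher in Ccer2-rich cells, with a median log2 ratio of 5.05, against 11.6% of 10002 genes and a median of -0.35. Of all genes 28.9% were called lower, which is the share to set beside each count called lower below. Of the granins and hormone-processing genes, 7 of 12 measured were called higher and 2 lower, with a median of 2.25. Pam, which amidates peptide hormones, stood at 243 CPM against 2.22 CPM, the hormone convertase Pcsk2 at 8.97 CPM against 0.139 CPM, and the granule membrane protein Ptprn at 26.5 CPM against 2.16 CPM. Cadps2, a priming factor for dense-core granules, stood the other way at 0.448 CPM against 97.8 CPM.

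Of the vesicle docking and fusion genes, 8 of 16 were called higher and 2 lower, with a median of 1.06. Sv2c, a vesicle membrane protein, stood at 57.7 CPM against 0.604 CPM, the complexin Cplx1 at 35.8 CPM against 1.51 CPM, Rab3d at 44.5 CPM against 3.67 CPM and Stx1a at 65.2 CPM against 6.26 CPM. Of the neuropeptides, 4 of 6 were called higher and 1 lower, with a median of 3.78. Penk, the enkephalin precursor, stood at 316 CPM against 0.592 CPM, the PACAP precursor Adcyap1 at 53.8 CPM against 0.0348 CPM, cholecystokinin (Cck) at 63.7 CPM against 1.75 CPM and neuropeptide Y (Npy) at 12.6 CPM against 0.697 CPM. Secretory genes of several kinds thus stood higher in Ccer2-rich than in Otof-positive cells together with Chga and Rab3c. Not all were higher than in neuron-marker cells, whose pooled levels were 41.9 CPM for Pcsk2, 32.8 CPM for Ptprn and 50.3 CPM for Npy. Cadps2 was also higher there, at 21.3 CPM. Neuron-marker cells stood lower for Pam (37.3 CPM), Sv2c (7.45 CPM), Rab3d (13.7 CPM), Penk (5.70 CPM) and Adcyap1 (22.4 CPM). They were lower but closer for Cplx1 (27.1 CPM), Stx1a (43.8 CPM) and Cck (49.7 CPM).

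Transmitter genes were split, with 1 of 3 called higher and 2 lower and a median of -2.05. Th, which makes the precursor of dopamine, stood at 88.0 CPM against 0.0697 CPM. The vesicular glutamate transporters stood the other way, Slc17a8 of hair cells at 29.4 CPM against 190 CPM and Slc17a6 at 3.68 CPM against 18.4 CPM. Slc32a1, the vesicular GABA transporter, stood at 0.807 CPM against 0.128 CPM, under the minimum. Of the mechanically gated channels other than Piezo2, 0 of 5 were called higher and 4 lower, with a median of -1.85. Tmc1 stood at 0.179 CPM against 109 CPM, Pkd2 at 10.3 CPM against 24.3 CPM and Tmem63b at 97.5 CPM against 139 CPM, and Kcnk2 at 1.08 CPM against 1.34 CPM was under the minimum. Among the mechanically gated channels measured, Piezo2 was thus the 1 called higher.

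Of the Merkel and neuroendocrine transcription factors, 7 of 11 were called higher and 1 lower, with a median of 2.32. Insm1 stood at 387 CPM against 14.3 CPM, Prox1 at 124 CPM against 8.85 CPM and Neurod1 at 62.6 CPM against 1.21 CPM. Neuron-marker cells had Insm1 at 112 CPM and Prox1 at 22.3 CPM, but Neurod1 at 234 CPM, above the Ccer2-rich level. Of the tuft and secretory progenitor genes both measured were called higher, with a median of 4.67. Avil, an actin-binding protein of tuft cells and sensory neurons, stood at 239 CPM against 0.523 CPM and Dclk1 at 19.9 CPM against 4.12 CPM. Among other simple keratins the 1 measured gene, Krt7, was called higher at 271 CPM against 86.5 CPM (median 1.64), and Krt19 at 4.39 CPM against 2.59 CPM was under the minimum. Of the basal and stratified keratins 2 of 3 were called higher and 0 lower, with a median of 2.89. Krt5 and Krt14 belong to the basal keratin gate, which limits their level in Ccer2-rich cells. Krt17 stood at 96.9 CPM in Ccer2-rich cells, 0.767 CPM in Otof-positive cells and 2159 CPM in basal keratin-positive cells. Krt14 stood at 12.9, 0.871 and 2206 CPM in the same order, Krt5 at 6.19, 0.941 and 2416 CPM and Krt1 at 3.68, 0.558 and 235 CPM.

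Marker lists of other cell types were read in the same way. Hair cell markers, among them Otof, which set the class compared, had 0 of 13 called higher and 11 lower, with a median of -3.40, and Myo7a (0.359 CPM against 202 CPM) and Pcdh15 (2.60 CPM against 104 CPM) were near 0. Supporting cell markers had 0 of 6 called higher and 5 lower, with a median of -3.15. Otog stood at 2.24 CPM against 48.0 CPM, Agr3 at 1.61 CPM against 23.6 CPM, Sox10 at 0.538 CPM against 12.8 CPM and Bricd5 at 1.70 CPM against 22.8 CPM. Neuron markers had 8 of 10 called higher and 2 lower, with a median of 1.80. Gap43 stood at 349 CPM in Ccer2-rich cells, 3.14 CPM in Otof-positive cells and 1154 CPM in neuron-marker cells. Tubb3 stood at 194, 4.69 and 2607 CPM and Stmn2 at 140, 4.73 and 2192 CPM, while Nefl at 39.6 CPM was lower than the 392 CPM of Otof-positive cells. The neuron gate itself limits these levels in Ccer2-rich cells.

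Epidermis markers had 2 of 3 called higher and 0 lower, with a median of 2.89, and include Krt17 and Krt14 above. Trp63 at 3.05 CPM against 0.0465 CPM and Dsc3 at 2.78 CPM against 0.0116 CPM were under the minimum and stood at 220 CPM and 90.1 CPM in basal keratin-positive cells. Mesenchyme markers had 5 of 5 called higher, with a median of 3.19. Col1a2 stood at 99.2 CPM against 4.6 CPM, Col1a1 at 55.0 CPM against 4.53 CPM, Col3a1 at 41.1 CPM against 3.62 CPM and Lum at 19.6 CPM against 1.43 CPM. Within Ccer2-rich cells Col1a2 stood at 74.2, 133, 0 and 14.5 CPM at day 16, day 20, GFP high and GFP low, so these collagens were highest in the library with most collagen-positive cells. Their part in the values of the 8 genes was not tested, and collagen-positive cells had Krt20 at 0 to 0.427 CPM and Hepacam2 at 0 to 2.78 CPM.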

How the data were processed

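Single-cell RNA-seq gave 4 libraries, 1 per group. The deposited matrices are UMI counts of each gene in each barcode, as whole numbers and not normalised, from Cell Ranger 6.1.2 per the file headers. Per the submitters' processing notes the tools were Seurat 4.0.6 and Cell Ranger 6.1.0, with mm10 as the build. Which annotation they used is not given in the sources used here. Genes, lists and comparisons were chosen with earlier results of these data known.

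Cells with 1000 or more detected genes and at most 15% mitochondrial UMIs were kept, after removing the highest Scrublet doublet scores (Scanpy 1.11.5) at 0.8% per 1000 barcodes, which took 120, 205, 109 and 137 cells. That left 14845 cells. The Ccer2 gate lay at the least populated bin (log10 width 0.1, running mean of 5 bins) between 5 and 500 UMIs per 10000, which was 223. Otof-positive cells had 3 or more Otof UMIs and 2 per 10000, basal keratin-positive cells 3 or more UMIs and 5 per 10000 over 3 keratins, and neuron-marker cells 10 per 10000 over 6 genes with 3 or more detected. Cells past several gates belong to no exclusive class. The Agr3 and collagen splits and the class past the Ccer2 and neuron gates were chosen after seeing the data.

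UMIs were summed by class and library and scaled to CPM. Levels carry exact Poisson, ratios exact conditional binomial and shares exact Clopper-Pearson 95% intervals, which cover counting error only, as does the limit of 3 counts behind a 0. Calls need a ratio of 2 and 10 CPM. The call rule was tested on simulated Poisson counts, which hold no variation between cells or libraries. No test across samples exists. Named genes beyond the 8 were, for each list, up to 4 with the largest log2(CPM + 1) ratio of Ccer2-rich over Otof-positive cells among those at 20 CPM or more in a class, and the 3 genes most like each of the 8. One gene so chosen is not reported here. The lists were simple epithelial keratins, basal and stratified keratins, mechanically gated channels, granins and hormone processing, vesicle docking and fusion, transmitter loading, neuropeptides, transcription factors, tuft genes, and markers of hair cells, epidermis, neurons, supporting cells and mesenchyme. Results were recomputed under 11 other settings, among them TMM scaling (edgeR 4.0.16), and under 1 more chosen after seeing the data. Python 3.11.15 with numpy 2.4.6, scipy 1.17.1 and pandas 2.3.3 was used, and matplotlib 3.10.9 drew the figures.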

Additional observations from a re-analysis of the deposited data

Results flagged for a closer look

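Krt8 and Krt18 stood out because their ratios between the day 21 libraries ran in opposite directions in different cell classes. GFP high over GFP low, Krt8 had a ratio of 4.81 in neuron-marker cells, 0.430 in all cells past the Ccer2 gate and 0.280 in basal keratin-positive cells. Krt18 had ratios of 2.06, 0.445 and 0.210 in the same 3 classes. The difference between the classes was not tested, since each ratio compares 1 library with 1 library. Beside these values, neuron-marker cells had Ccer2 at 557 CPM in GFP high and 108 CPM in GFP low, and the 10 highest cells held 75.6% of their Krt8 UMIs in GFP high and 53.6% in GFP low.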

How the results depend on the processing

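Over 12 other settings, 1 of them chosen after seeing the data, 709 ratios of the 8 genes were recomputed, 317 of them called in the main setting. Of the called ratios 14 lost the call, and 1 changed direction: Chga in GFP high over GFP low Ccer2-rich cells had a ratio of 0.869 with the Ccer2 gate halved. Most of the called ratios set Ccer2-rich cells against another class, and many of those lay far above the limit of 2. The 14 are thus no measure of how stable the GFP and day calls were. Of the ratios not called, 16 changed direction. Of 89 recomputed counts of called genes, 75 stayed within 1.5 times the main count. For GFP high over GFP low in Ccer2-rich cells, where the main count of 2 rests on 3 GFP high cells, the count was 6 with the gate halved, 4 with it doubled, 4 with cells past several gates included, 1 with CPM computed without Ccer2, 1 with means of per-cell CPM, and 0 among cells past the Ccer2 and neuron gates. For Otof-positive cells, where the main count was 0, it was 1 with a limit of 25% mitochondrial UMIs, 1 with doublets kept, 1 with means of per-cell CPM and 2 without the CPM minimum. For day 20 over day 16 in Ccer2-rich cells, where the main count was 1, it was 0 with the gate doubled, 0 with TMM scaling and 2 among cells past the Ccer2 and neuron gates. For GFP high over GFP low over all cells the count was 1 with TMM scaling, against 2, as the Hepacam2 ratio became 0.502. The causes were not tested. Shares of all genes called were not recomputed under the other settings, so these counts have no share to set beside them. Cells past the Ccer2 and neuron gates are the exception. Their shares were 6.91% for GFP high over GFP low and 12.9% for day 20 over day 16. TMM moved the log2 ratios by 0.12 for GFP high over GFP low and 0.19 for day 20 over day 16 over all cells, and by -0.24 and 0.12 in Ccer2-rich cells. Leaving out the 10 highest cells gave no value for the 3 GFP high Ccer2-rich cells. No paired analysis was possible because each group has 1 library and the labels give no replicate numbers.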
